A study of Mus musculus with 15 samples.

Results

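The 10 genes described here are listed targets of NRF2, the transcription factor that answers oxidative and electrophilic stress: Gclc, Gclm, Txnrd1, Srxn1, Nqo1, Cbr3, Ces2g, Hmox1, Abcc4 and Osgin1. They were chosen by name, and their probes were found through the RefSeq accession that the array files give for each probe. All 10 were among the 15619 genes tested. RNA was measured on 15 single-colour microarrays, each hybridised with total RNA of 1 tissue sample of a female FVB/N mouse. Hosts were wild-type mice that had received the plant alkaloid monocrotaline, which injures liver endothelium and hepatocytes, at 7 to 9 weeks of age (70 mg/kg into the peritoneum, 2 doses 2 weeks apart). They were then given 1000000 hepatocytes of FVB/N-hA1AT donors, aged 8 to 20 weeks and carrying a human antitrypsin transgene, beneath the kidney capsule. At 250 to 300 days, with the hosts aged 48 to 55 weeks, 4 arrays each were made from host kidney, from host liver and from neo-liver, the ectopic liver tissue dissected from the kidney. Control liver came from 3 normal mice aged 20 weeks. Age, injury and transplantation differ together between the hosts and the control mice and cannot be told apart.

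In unstressed cells KEAP1 holds NRF2 in the cytoplasm and passes it to a ubiquitin ligase for degradation. Oxidants and electrophiles modify KEAP1, NRF2 accumulates, pairs with a small MAF protein and binds antioxidant response elements, while the haem sensor BACH1 competes for the same sites. The targets make glutathione, reduce thioredoxin and oxidised proteins, reduce quinones and carbonyls, break down haem and export conjugates, and in liver they are known for detoxification. NRF2 protein was not measured in these samples, and other factors also act on several of these genes.

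The letters of these elements were looked for in the 250 bases before each transcript start in RefSeq (GRCm38.p6), which held 11 starts of 8 of the genes. Gclc and Hmox1 are not in that table. The motifs were TGACNNNGC, the core of the antioxidant response element, and TGACTCA, the related AP-1 type element, each on both strands. TGACNNNGC stood before 4 of the 11 starts (Gclm, 1 of the 3 starts of Txnrd1 and both starts of Abcc4), against 10.2% of all 32851 windows of that length. TGACTCA stood before 2 of the 11 (Srxn1 and Osgin1), against 4.46% of all windows, and none of the 11 held both, against 0.724% of all. Srxn1 held 2 copies on the reverse strand, 102 to 96 and 45 to 39 bases before the start, and Osgin1 held 1 on the forward strand, 97 to 91 bases before it. Srxn1 and Osgin1 were called higher in neo-liver than in control liver, and so was Cbr3, whose window held neither motif. The windows of Srxn1 and Osgin1, and of Gclm and Txnrd1 with the other motif, are printed 5′ to 3′ along the gene. Matched letters are in capitals in these windows. The windows lie at chr2:152105274-152105523 on the plus strand (Srxn1), chr8:119436897-119437146 plus (Osgin1), chr3:122245307-122245556 plus (Gclm) and chr10:82858956-82859205 plus (Txnrd1).
Srxn1: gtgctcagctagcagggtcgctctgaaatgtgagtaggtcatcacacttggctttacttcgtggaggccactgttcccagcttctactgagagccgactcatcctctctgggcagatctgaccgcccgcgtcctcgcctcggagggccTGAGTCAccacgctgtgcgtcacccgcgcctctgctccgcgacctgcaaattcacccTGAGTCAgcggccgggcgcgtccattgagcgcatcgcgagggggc
Osgin1: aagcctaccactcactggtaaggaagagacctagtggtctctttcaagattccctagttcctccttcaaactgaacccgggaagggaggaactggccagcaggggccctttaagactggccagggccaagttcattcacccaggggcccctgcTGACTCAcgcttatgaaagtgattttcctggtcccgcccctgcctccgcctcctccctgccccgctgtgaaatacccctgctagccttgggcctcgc
Gclm: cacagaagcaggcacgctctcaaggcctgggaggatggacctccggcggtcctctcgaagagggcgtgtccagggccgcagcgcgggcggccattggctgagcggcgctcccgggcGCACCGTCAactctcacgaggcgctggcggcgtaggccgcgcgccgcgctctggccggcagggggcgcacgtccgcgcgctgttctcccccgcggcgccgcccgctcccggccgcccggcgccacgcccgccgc
Txnrd1: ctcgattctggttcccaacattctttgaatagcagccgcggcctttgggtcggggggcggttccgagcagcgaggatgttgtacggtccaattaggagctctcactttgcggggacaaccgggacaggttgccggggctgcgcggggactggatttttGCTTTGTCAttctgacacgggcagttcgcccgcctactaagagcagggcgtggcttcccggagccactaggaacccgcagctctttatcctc
A match is a description of these letters and no measured binding site.

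Levels are log2 processed signals minus the 75th percentile of the array, so 1 unit is a doubling, and levels of different genes are not compared. That percentile lay between 287 and 874 intensity units, and 47.7% to 68.5% of probes were well above background. The 10 genes were above background on all 15 arrays, except that the Abcc4 spot of control liver 2 was set aside as non-uniform. The 10 hepatocyte markers were above background on every array of the 3 liver groups, and 7 of them on every host kidney array. Their summed level was 12.27 to 12.37 in control liver, 12.37 to 12.91 in host liver, 11.48 to 12.12 in neo-liver and 4.02 to 5.02 in host kidney. Host kidney stood far below the liver groups and neo-liver lay below the other livers, while control liver and host liver overlapped at the edge. Neo-liver also held kidney RNA. The summed level of 12 proximal tubule markers was 7.14 to 8.76 in neo-liver, 10.12 to 10.57 in host kidney, -0.53 to -0.51 in control liver and -0.63 to 0.42 in host liver. As the median over 30 kidney markers, the kidney share of the signal was 17.5%, 47.2%, 19.3% and 30.9% in neo-liver 1 to 4, and at most 0.0206% in host liver. The markers disagreed widely, with quartiles of 8.98% and 31.3% in neo-liver 1, 17.2% and 62.9% in neo-liver 2, 7.47% and 29.998% in neo-liver 3, and 15.9% and 42.9% in neo-liver 4, so the share is a coarse estimate. Each neo-liver result of a member is also given with the median share of the host kidney signal subtracted where this changed the call, and with the quartiles where they differ. In bulk tissue, fewer cells of a type and less RNA per cell cannot be told apart.

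The 10 genes did not move together. Differences are on the log2 scale, with a standard error (SE) from 1 limma fit of all arrays, and a gene is called at an adjusted p under 0.05. This fit does not pair host tissues by replicate number. SEs and intervals between host tissues thus include spread that tissues of the same number share. In host liver against control liver, Osgin1 and Gclc were higher and no member was lower, while 24.7% of all genes were called (13.4% higher and 11.2% lower). The median over the members was 0.61, against 0.08 over all genes, and 9 of 10 differences were positive. In neo-liver against control liver, Osgin1, Cbr3 and Srxn1 were higher and none was lower, where 50.2% of all genes were called (20.4% higher, 29.8% lower) and the medians were 0.38 and -0.15. At an unadjusted p under 0.05 these counts were 4 and 3 members, all higher. The 2 comparisons share their 3 control livers.

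In neo-liver against host liver, 5 members were lower (Gclc, Gclm, Txnrd1, Ces2g and Osgin1) and none was higher, where 48.6% of all genes were called, 31.5% lower and 17.1% higher. The median over the members was -0.41 and that over all genes -0.21. Hepatocyte markers were lower too, 7 of 10 in neo-liver than in host liver (median -0.94) and 7 of 10 than in control liver (median -0.86), and with the kidney share subtracted 3 of 10 in each. Their part in the members' differences was not tested. At an unadjusted p under 0.05 there were 6 members, with Abcc4 the added one, higher in neo-liver. This count rested on the scaling: with quantile normalization 0 of 9 members were called (2 at an unadjusted p under 0.05), and with normexp background correction 1 was higher and 2 were lower. With the kidney share subtracted 3 were lower, or 5 and 1 with the lower and upper quartile of that share. Against host kidney, 5 members were higher in neo-liver and none lower (52.7% of all genes called, 23.2% higher and 29.5% lower), and in host liver 6 were higher and 1 lower (70.8% called, 39.6% higher and 31.2% lower). With normexp these splits were 3 and 1, and 4 and 1, and with quantile normalization the second was 4 and 0. Host kidney against control liver had 1 member higher, Cbr3, and 2 lower, Txnrd1 and Ces2g (66.5% called, 30.2% higher and 36.3% lower), and with normexp 2 and 1. The shares of all genes belong to the main fit, so counts under other settings cannot be set against them. Nqo1, a target often used as a readout of NRF2, was called in none of the 6 comparisons.

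**Figure D1:**
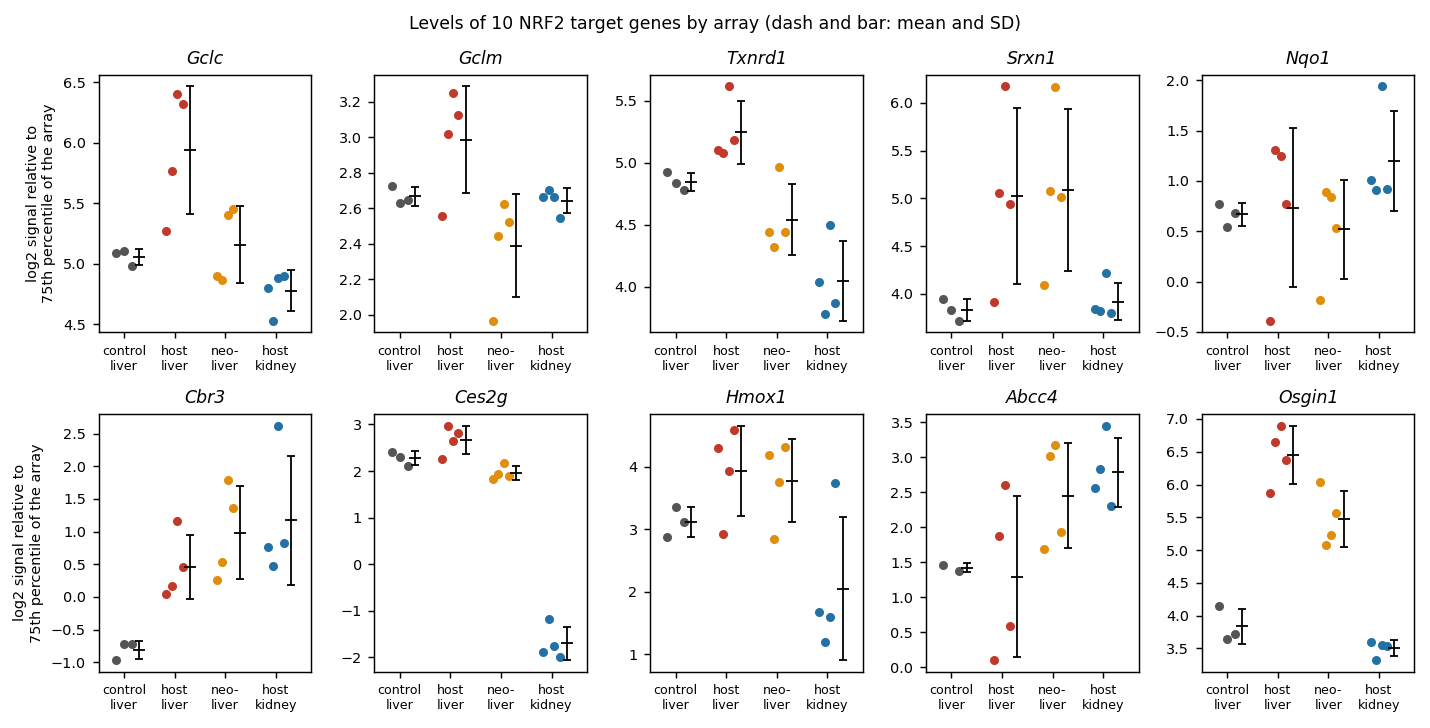
Log2 level of each of the 10 genes relative to the 75th percentile of the array, 1 point per array in control liver (3 arrays, 2 for Abcc4), host liver, neo-liver and host kidney (4 each); the dash and bar are the mean and SD. Control livers lie close together while host arrays spread widely, for Srxn1 between 3.92 and 6.17 in host liver.

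**Figure D2:**
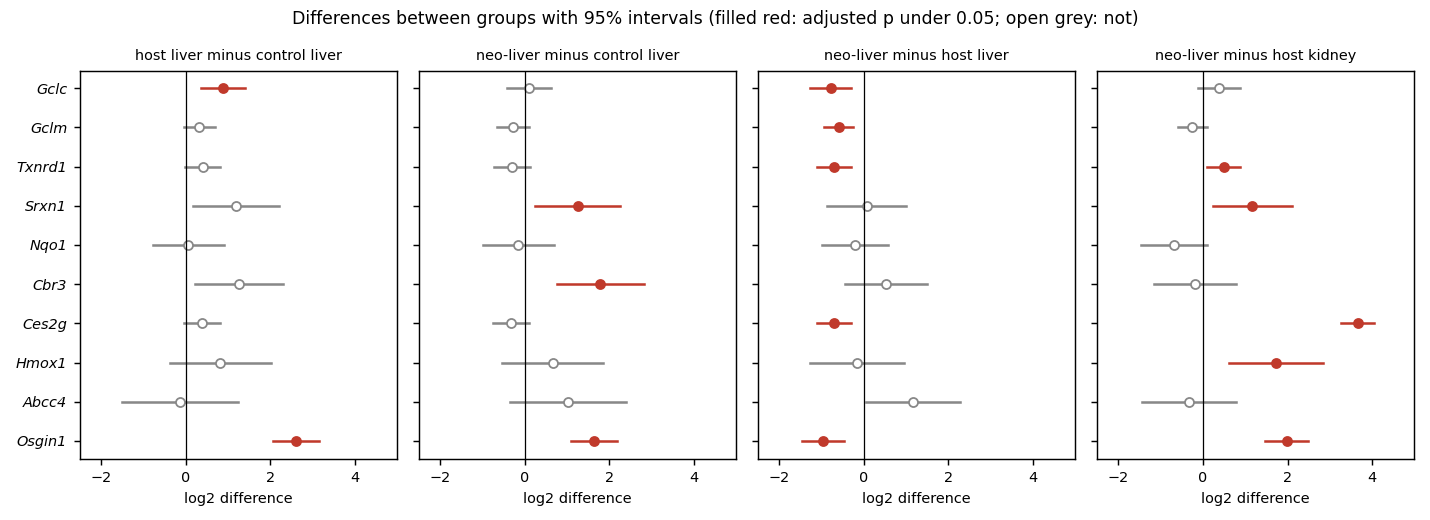
Log2 differences of the 10 genes in 4 comparisons, with 95% intervals from the limma fit; filled red points have an adjusted p under 0.05. Osgin1 is called in all 4 panels, higher in 3 and lower in neo-liver against host liver.

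Osgin1, which encodes an oxidative stress induced growth inhibitor, was the member with the largest difference between host liver and control liver. Its level was 4.15, 3.65 and 3.72 in control liver 1 to 3 and 5.88, 6.64, 6.90 and 6.37 in host liver 1 to 4. Neo-liver gave 6.04, 5.08, 5.23 and 5.57, and host kidney 3.60, 3.32, 3.55 and 3.54. Every host liver and neo-liver array lay above every control liver and host kidney array, and host liver and neo-liver overlapped through neo-liver 1. Osgin1 was 6.11-fold higher in host liver than in control liver (2.61 ± 0.25, SE, 4 against 3 arrays, adjusted p = 3.54e-05) and 3.12-fold higher in neo-liver (1.64 ± 0.25, adjusted p = 0.000133). Both calls held under every alternative run. Neo-liver was lower than host liver by 0.97 ± 0.23 (adjusted p = 0.00411), a call that ended with quantile normalization (adjusted p = 0.143), with normexp (0.125) and with the kidney share subtracted (0.0542; 0.0112 with the lower quartile and 0.276 with the upper). Host kidney and control liver, the lowest groups, differed by -0.33 ± 0.25 (adjusted p = 0.254).

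Srxn1 and Txnrd1 encode enzymes of the thioredoxin arm: sulfiredoxin, which repairs over-oxidised peroxiredoxins, and the cytosolic thioredoxin reductase. Srxn1 stood at 3.95, 3.84 and 3.72 in control liver, at 3.92, 5.06, 6.17 and 4.94 in host liver, and at 4.09, 5.08, 6.17 and 5.02 in neo-liver. Host kidney gave 3.84, 3.82, 4.21 and 3.80. Host liver 1 thus lay within the control range while host liver 3 stood far above it, and neo-liver had the same spread. Srxn1 was 2.39-fold higher in neo-liver than in control liver (1.25 ± 0.47, 4 against 3 arrays, adjusted p = 0.0387). In host liver the difference was 1.19 ± 0.47 (adjusted p = 0.0797), and neo-liver and host liver differed by 0.07 ± 0.43 (adjusted p = 0.910, 95% interval -0.87 to 1.00). That interval leaves out the pairing by replicate number. Within numbers 1 to 4 neo-liver minus host liver was 0.17, 0.02, -0.01 and 0.08. The neo-liver call ended without any 1 of control liver 1 to 3 (adjusted p = 0.0746, 0.0852 and 0.0974) or of neo-liver 2, 3 and 4 (0.0629, 0.105 and 0.0618), and with median centring (0.0548). The host liver difference was called without host liver 1 (1.56, adjusted p = 0.0191).

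Srxn1 was also higher than in host kidney, by 1.17 ± 0.43 in neo-liver (adjusted p = 0.0360) and by 1.10 ± 0.43 in host liver (adjusted p = 0.0352). Both ended with quantile normalization (adjusted p = 0.0560 and 0.294), with normexp (0.0667 and 0.320) and without host kidney 1 (0.0702 and 0.0667), 2 (0.0722 and 0.0684) or 4 (0.0730 and 0.0704). The neo-liver call also ended without neo-liver 2, 3 or 4 (0.0605, 0.118 and 0.0589), and the host liver call without host liver 2, 3 or 4 (0.0619, 0.120 and 0.0547). Host kidney and control liver differed by 0.09 ± 0.47 (adjusted p = 0.881).

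Txnrd1 followed another order, host liver, control liver, neo-liver and host kidney. Its level was 5.10, 5.08, 5.62 and 5.18 in host liver, 4.92, 4.84 and 4.78 in control liver, 4.44, 4.32, 4.96 and 4.44 in neo-liver, and 4.03, 3.78, 4.50 and 3.87 in host kidney. All host livers were above all control livers, and neo-liver 3 was the only neo-liver above the control range. Neither neighbour of control liver was called, at 0.40 ± 0.20 for host liver (adjusted p = 0.153) and -0.30 ± 0.20 for neo-liver (adjusted p = 0.213). Neo-liver was lower than host liver by 0.71 ± 0.18 (adjusted p = 0.00642; 0.289 with quantile normalization, 0.250 with normexp and 0.0768 with the upper quartile of the kidney share subtracted). It was 2.30-fold higher in host liver than in host kidney (1.20 ± 0.18, adjusted p = 4.73e-05), and host kidney was lower than control liver by 0.80 ± 0.20 (adjusted p = 0.00264; 0.445 and 0.530 with these 2 settings). Neo-liver exceeded host kidney by 0.49 ± 0.18 (adjusted p = 0.0347). That call ended with both settings (0.195 and 0.247), in a fit of the 2 groups alone (0.0686), and without host kidney 1, 2 or 4 (0.0642, 0.103 and 0.0901) or neo-liver 3 (0.113).

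Gclc and Gclm encode the catalytic and modifier subunits of glutamate cysteine ligase, which makes the first bond of glutathione. Gclc read 5.09, 5.10 and 4.98 in control liver, 5.27, 5.77, 6.40 and 6.32 in host liver, and 4.90, 4.87, 5.41 and 5.46 in neo-liver. Host kidney read 4.80, 4.53, 4.88 and 4.90. All host livers exceeded all control livers, whereas neo-liver 1 and 2 lay below the control range and neo-liver 3 and 4 above it. Gclc was 1.84-fold higher in host liver than in control liver (0.88 ± 0.24, adjusted p = 0.0189). The call ended without control liver 1, 2 or 3 (adjusted p = 0.0548, 0.0530 and 0.0642), without host liver 4 (0.0520) and in a fit of the 2 groups alone (0.0709). In neo-liver the difference from control liver was 0.10 ± 0.24 (adjusted p = 0.756, 95% interval -0.43 to 0.62), and Gclc was lower than in host liver by 0.78 ± 0.23 (adjusted p = 0.0116; 0.320 with quantile normalization, 0.254 with normexp, 0.0581 in a fit of the 2 groups alone and 0.0823 with the upper quartile of the kidney share subtracted). Host liver exceeded host kidney by 1.16 ± 0.23 (adjusted p = 0.000397; 0.0942 with quantile normalization and 0.0624 with normexp). Neo-liver and host kidney differed by 0.38 ± 0.23 (adjusted p = 0.173), and host kidney and control liver by -0.28 ± 0.24 (adjusted p = 0.324).

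Gclm moved less. It read 2.73, 2.63 and 2.65 in control liver, 2.56, 3.02, 3.25 and 3.13 in host liver, 1.97, 2.45, 2.63 and 2.52 in neo-liver, and 2.67, 2.71, 2.66 and 2.54 in host kidney. Host liver 1 lay below the control livers and host liver 2 to 4 above them, while every neo-liver lay below every control liver. Neither differed from control liver by the test, at 0.32 ± 0.17 for host liver (adjusted p = 0.191; 0.0400 without host liver 1) and -0.28 ± 0.17 for neo-liver (adjusted p = 0.194). Gclm was lower in neo-liver than in host liver by 0.60 ± 0.16 (adjusted p = 0.00764; 0.0906 with quantile normalization and 0.0513 in a fit of the 2 groups alone). Host liver exceeded host kidney by 0.34 ± 0.16 (adjusted p = 0.0678), which was called with mouse number as a block over the host arrays (0.0407), with median centring (0.0143) and without host liver 1 (0.00770). The difference of neo-liver from host kidney was -0.25 ± 0.16 (adjusted p = 0.195; called with normexp, at -0.34, adjusted p = 0.0371), and that of host kidney from control liver -0.02 ± 0.17 (adjusted p = 0.913).

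Nqo1, Cbr3 and Ces2g encode metabolic enzymes: a quinone reductase, a carbonyl reductase and a carboxylesterase. Nqo1 read 0.77, 0.55 and 0.68 in control liver, -0.39, 1.30, 1.25 and 0.78 in host liver, -0.18, 0.89, 0.84 and 0.53 in neo-liver, and 1.01, 0.91, 1.94 and 0.92 in host kidney. Host liver 1 and neo-liver 1 were the lowest of all arrays, and all other host livers lay at or above the control range. The differences from control liver were 0.07 ± 0.39 in host liver (adjusted p = 0.916, 95% interval -0.77 to 0.91) and -0.15 ± 0.39 in neo-liver (adjusted p = 0.772, -0.99 to 0.69). These intervals take 1 spread for all groups, though the SD was 0.79 in host liver and 0.12 in control liver. The host liver interval therefore does not exclude a doubling there. Neo-liver against host liver gave -0.22 ± 0.36 (adjusted p = 0.643). Neo-liver against host kidney gave -0.68 ± 0.36 (adjusted p = 0.131), which was called with mouse number as a block (0.0479) and with the kidney share subtracted (-1.12, 0.0269; -0.83, 0.0779 with the lower quartile). Host liver differed from host kidney by -0.46 ± 0.36 (adjusted p = 0.266), and host kidney from control liver by 0.53 ± 0.39 (adjusted p = 0.247).

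Cbr3 was lowest in control liver, at -0.96, -0.72 and -0.73. Host liver gave 0.05, 0.17, 1.16 and 0.46, neo-liver 0.26, 0.54, 1.79 and 1.35, and host kidney 0.76, 0.48, 2.62 and 0.83. All host arrays of every tissue lay above all control livers, and the host tissues overlapped. Cbr3 was 3.46-fold higher in neo-liver than in control liver (1.79 ± 0.48, 4 against 3 arrays, adjusted p = 0.00739), but with the kidney share subtracted the difference was 1.09 (adjusted p = 0.244), with the lower quartile 1.67 (0.0158) and with the upper 0.13 (0.940). In host kidney it was 3.93-fold higher (1.98 ± 0.48, adjusted p = 0.00248). The host liver difference of 1.26 ± 0.48 missed the threshold (adjusted p = 0.0710) and passed it with mouse as a random block (0.0390) and in a fit of the 2 groups alone (0.0247). Host liver was lower than host kidney by 0.71 ± 0.45 (adjusted p = 0.168), and with mouse number as a block this was called (0.0181). Neo-liver differed from host liver by 0.53 ± 0.45 (adjusted p = 0.347) and from host kidney by -0.19 ± 0.45 (adjusted p = 0.748).

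Ces2g separated liver from kidney. Its level was 2.42, 2.30 and 2.11 in control liver, 2.25, 2.96, 2.66 and 2.81 in host liver, 1.83, 1.95, 2.17 and 1.89 in neo-liver, and -1.88, -1.18, -1.75 and -1.98 in host kidney. Every array of the 3 liver groups lay above every host kidney array. Ces2g was 20.7-fold higher in host liver than in host kidney (4.37 ± 0.18, adjusted p = 9.97e-11), 12.6-fold higher in neo-liver (3.66 ± 0.18, adjusted p = 1.63e-09) and, against control liver, 15.7-fold lower in host kidney (adjusted p = 6.17e-10). Control liver lay between host liver (0.39 ± 0.20, adjusted p = 0.166) and neo-liver (-0.32 ± 0.20, adjusted p = 0.198). Neo-liver was lower than host liver by 0.71 ± 0.18 (adjusted p = 0.00654). With the kidney share subtracted that difference was -0.23 (adjusted p = 0.377; -0.53, 0.0304 with the lower quartile and 0.062, 0.846 with the upper), and with quantile normalization -0.47 (0.0528). The files hold no probe sequence, so cross-hybridisation with other Ces2 genes was not checked.

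Hmox1 encodes haem oxygenase 1, which opens the haem ring and is also made by macrophages that clear red cells. It read 2.87, 3.35 and 3.11 in control liver, 4.29, 2.92, 3.93 and 4.58 in host liver, 4.19, 2.84, 3.76 and 4.31 in neo-liver, and 1.67, 1.19, 1.60 and 3.73 in host kidney. Mice 1, 3 and 4 were above the control range in host liver and neo-liver, mouse 2 was not, and host kidney 4 stood above the other kidneys. The differences from control liver were 0.82 ± 0.56 in host liver (adjusted p = 0.304) and 0.66 ± 0.56 in neo-liver (adjusted p = 0.342). Hmox1 was 3.68-fold higher in host liver than in host kidney (1.88 ± 0.52, adjusted p = 0.00511) and 3.30-fold higher in neo-liver (1.72 ± 0.52, adjusted p = 0.0124). Neo-liver differed from host liver by -0.16 ± 0.52 in this unpaired fit (adjusted p = 0.820), and by -0.10, -0.08, -0.18 and -0.27 within mice 1 to 4. Host kidney differed from control liver by -1.06 ± 0.56 (adjusted p = 0.108), and by -1.62 without host kidney 4 (0.00483). A second Hmox1 probe had the same order of the 4 mice in host liver and neo-liver except that mice 1 and 3 were level (0.99 and 0.99, 0.77 and 0.77).

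Markers of recruited macrophages shared the highest and the lowest mouse with Hmox1 in host liver and neo-liver, but not the order of the tissues. The summed level of 6 tested markers of 7 was 3.22, 2.65, 3.36 and 4.45 in host liver 1 to 4 and 4.18, 3.61, 4.18 and 5.51 in neo-liver, against 1.83 to 2.57 in control liver and 3.71 to 3.96 in host kidney. All 6 were above background on every neo-liver array, and 4 of 6 on every array of each other group. The 3 tested erythroid markers of 5 summed to 9.47, 7.44, 7.69 and 8.81 in host liver and to 8.25, 6.96, 6.12 and 8.23 in neo-liver, against 5.83 to 6.51 in control liver. Mouse 4 was highest for the recruited macrophage markers and mouse 2 lowest in both tissues, as for Hmox1. Mouse 1 lay above mouse 3 for Hmox1 and not for these markers in host liver. Host kidney, lowest for Hmox1, lay above control liver for these markers. The 10 markers of Kupffer cells, the resident liver macrophages, summed to 8.25, 7.41, 7.78 and 8.10 in host liver 1 to 4. They summed to 7.28, 6.65, 6.91 and 7.15 in neo-liver, 6.78 to 7.58 in control liver and 2.65 to 3.40 in host kidney. Host kidney was thus lowest for the Kupffer cell markers, as for Hmox1, while neo-liver and control liver overlapped. Mouse 1 was highest and mouse 2 lowest for them in host liver and neo-liver. The part of these cells in the Hmox1 levels was not tested.

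Abcc4 encodes an export pump that moves bile acids and drug conjugates out of the cell, in hepatocytes toward the blood. It read 1.47 and 1.38 in control liver 1 and 3, 0.11, 1.87, 2.61 and 0.59 in host liver, 1.69, 3.01, 3.18 and 1.93 in neo-liver, and 2.57, 2.83, 3.45 and 2.30 in host kidney. Host livers lay on both sides of the control livers, and all neo-livers above them. Abcc4 was 2.81-fold lower in host liver than in host kidney (-1.49 ± 0.51, adjusted p = 0.0202), which ended without host kidney 3 (adjusted p = 0.0601), host liver 1 (0.0634) or host liver 4 (0.0604). In neo-liver against host liver the difference was 1.16 ± 0.51 (adjusted p = 0.0802), and neo-liver was higher in each of the 4 mice. With mouse number as a block over the host arrays it was called (SE 0.25, adjusted p = 0.00508), and so it was with normexp (0.0465) and without host liver 3 (0.0166). Against 2 control arrays, the differences were -0.13 ± 0.63 in host liver (adjusted p = 0.902), 1.03 ± 0.63 in neo-liver (0.191) and 1.37 ± 0.63 in host kidney (0.0729). The last was called in a fit of the 2 groups alone (0.00712) and with mouse as a random block (0.0398). It was also called with normexp (1.54 ± 0.47) and with the deposited values (0.0329). Flagged spots were not left out of these last settings, so they do not rest on the same 2 control arrays. Neo-liver and host kidney differed by -0.33 ± 0.51 (adjusted p = 0.609).

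The spread within the host groups was shared between tissues. Host samples carry a replicate number from 1 to 4, and arrays with the same number deviated together across genes, so numbers are taken here as mice. For 7 of the 10 genes the 4 mice stood in the same order in host liver and in neo-liver (Nqo1, Gclm, Hmox1, Txnrd1, Srxn1, Abcc4 and Cbr3), as they did for 19.9% of all genes. For 5 genes (Hmox1, Txnrd1, Srxn1, Abcc4 and Cbr3) the highest mouse was the same in all 3 host tissues, against 25.1% of all genes. Srxn1 in neo-liver minus host liver was 0.17, 0.02, -0.01 and 0.08 in mice 1 to 4, while the mice spanned 2.26 in host liver and 2.08 in neo-liver. For Gclm the same differences were -0.59, -0.57, -0.62 and -0.60, and for Txnrd1 -0.66, -0.76, -0.65 and -0.74. The difference between the tissues was thus close to constant across mice for these 3 genes.

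**Figure D3:**
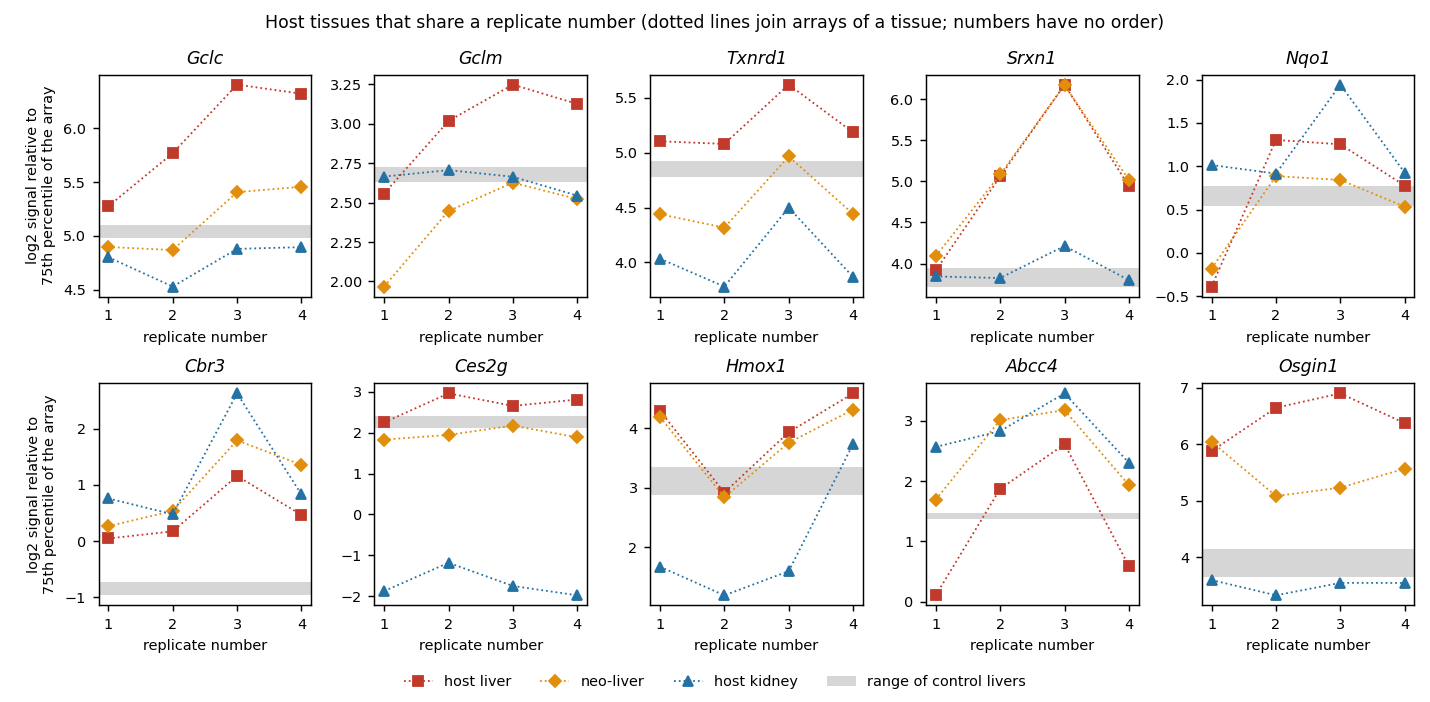
Log2 level of each gene by replicate number in host liver (squares), neo-liver (diamonds) and host kidney (triangles), with the range of control livers in grey; the numbers have no order. For Srxn1 and Hmox1 the squares and diamonds nearly coincide at each number, and for Osgin1 they do not keep the same order.

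Mouse 3 was highest and mouse 1 lowest for several members. By the mean over the 3 host tissues, mouse 3 was highest for Nqo1, Gclc, Gclm, Txnrd1, Srxn1, Abcc4, Cbr3 and Osgin1, mouse 4 for Hmox1 and mouse 2 for Ces2g. Osgin1 was highest in mouse 1 in neo-liver and host kidney. The share of all genes with mouse 3 highest is not given, so this list is no trait particular to the members. A test of differences between mice over the 12 host arrays, with tissue in the fit, was added after these values had been seen. It called 4 members, against 7.75% of all genes: Hmox1 (3.71-fold between the extreme mice, adjusted p = 0.0480), Txnrd1 (1.55-fold, adjusted p = 0.0223), Abcc4 (3.08-fold, adjusted p = 0.0327) and Cbr3 (2.83-fold, adjusted p = 0.0323). Srxn1 ranged 2.97-fold (adjusted p = 0.0601), Nqo1 2.29-fold (0.0916) and Gclc 1.49-fold (0.0982). Osgin1 ranged 1.16-fold (adjusted p = 0.932), and its neo-liver minus host liver differences were 0.16, -1.56, -1.67 and -0.80. With quantile normalization Hmox1 was not called (0.0552) and Srxn1 was (0.0482), and with normexp 6 members were called, with Srxn1 (0.0271) and Gclc (0.0375) added. Without the host kidney arrays 7 members were called, adding Nqo1, Gclm and Srxn1. Without any 1 mouse, without the neo-liver arrays or without the host liver arrays, 0 were called (3 to 6, 4 and 4 at an unadjusted p under 0.05). The share of 7.75% of all genes belongs to the main fit, and the counts under these alternatives cannot be set against it. The mouse test was made on the arrays in which the pattern was noticed.

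Other cell markers also differed between these mice. Of the 6 neutrophil markers, 4 were called between mice, and their summed level in neo-liver was 8.91, 4.72, 5.86 and 6.71 in mice 1 to 4, against 1.62 to 2.22 in control liver. In host liver it was 7.19, 3.10, 4.87 and 5.50, and in host kidney 4.24, 0.42, 2.24 and 2.34. Mouse 1, highest for these markers in all 3 tissues, was lowest for Nqo1, Gclm, Srxn1, Abcc4, Cbr3 and Ces2g in host liver and neo-liver. Of the erythroid markers 3 of 3 were called between mice, of the recruited macrophage markers 2 of 6 and of the hepatocyte markers 1 of 10. The part of these cells in the member levels was not tested.

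Among 12 regulators of NRF2, its own gene Nfe2l2 was called in no comparison, at 0.02 ± 0.22 in host liver (adjusted p = 0.952) and -0.05 ± 0.22 in neo-liver against control liver (adjusted p = 0.865). In host liver 3 regulators were higher and 1 lower. Maff, a small MAF partner, was 6.70-fold higher (2.74 ± 0.62, adjusted p = 0.00707), Mafk 1.59-fold (0.67 ± 0.10, adjusted p = 0.000490) and Keap1, the repressor, 1.77-fold (0.82 ± 0.12, adjusted p = 0.000447), while Mafg fell by 0.56 ± 0.13 (adjusted p = 0.00668). In neo-liver 2 were higher, Maff at 5.10-fold (2.35 ± 0.62, adjusted p = 0.00662) and Mafk at 1.58-fold, and 4 were lower, among them Mafg (-0.86 ± 0.13) and the ligase scaffold Cul3 (-0.36 ± 0.12, adjusted p = 0.0269). With the kidney share subtracted these counts were 2 and 3. Keap1 fell by 0.32 ± 0.12 there (adjusted p = 0.0364; -0.09, 0.606 with the kidney share subtracted) and was 2.20-fold lower in neo-liver than in host liver (-1.14 ± 0.11, adjusted p = 2.66e-06). Bach1 differed from control liver by 0.38 ± 0.16 in host liver (adjusted p = 0.101) and -0.10 ± 0.16 in neo-liver (0.624), and was lower in neo-liver than in host liver by 0.48 ± 0.15 (adjusted p = 0.0170; 0.0814 with the kidney share subtracted).

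Maff, Bach1 and the KEAP1 adaptor gene Sqstm1 were the 3 regulators called between mice, each with mouse 3 highest by the mean over tissues. Maff read -0.67, 0.51, 2.35 and 1.09 in host liver 1 to 4 against -2.03 to -1.74 in control liver. Sqstm1 read 3.25, 4.44, 5.01 and 4.11 in host liver and 2.74, 3.83, 4.80 and 3.80 in neo-liver, against 3.67, 3.62 and 3.77 in control liver. Mouse 1 was thus below and mouse 3 well above the control livers for Sqstm1 in both tissues, as for Abcc4 in host liver.

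Other antioxidant lists gave mixed directions, and neo-liver counts are followed by those with the kidney share subtracted. Of 11 tested genes of glutathione synthesis and reduction, 3 were higher and 1 lower in host liver than in control liver (median 0.29, all genes 0.08). Gpx3, for the plasma glutathione peroxidase, was higher by 0.94 ± 0.25 (adjusted p = 0.0173), Gpx4 by 0.76 ± 0.20 (0.0161) and Gss, for glutathione synthetase, by 0.67 ± 0.23 (0.0485). In neo-liver 4 were higher and 3 lower (median 0.19, all genes -0.15), and with the share subtracted 3 and 3 (median -0.30, all genes -0.25). The largest rises in neo-liver were of Gpx3 (9.48 ± 0.25) and Ggt1 (8.89 ± 0.31), genes that kidney tubule makes. With the share subtracted the difference of Gpx3 was 9.26 (adjusted p = 4.32e-10) and that of Ggt1 1.44 (adjusted p = 0.000569). Gpx3 in host kidney exceeded control liver by 10.05 ± 0.25, and Ggt1 was not well above background in control liver. Ggt1 in neo-liver was 5.14-fold lower than in host kidney, near the shares subtracted. Subtracted values were held at or above a floor, the lowest signal well above background. The 1.44 may therefore measure this floor and does not show Ggt1 beyond the kidney share. Gpx1 fell by 1.09 ± 0.19 (adjusted p = 0.000323).

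Of 22 glutathione transferases, 1 was higher and 1 lower in host liver (median 0.06), and 2 were higher and 9 lower in neo-liver (median -0.31; with the share subtracted 1 and 8, median -0.08). Gstp2 rose by 1.17 ± 0.33 in host liver (adjusted p = 0.0215). In neo-liver the largest called rise was of Mgst2 (2.43 ± 0.62, adjusted p = 0.00527) and the largest called fall of Gstt3 (-2.97 ± 0.74, adjusted p = 0.00469). Gstm7 fell there by 1.96 ± 0.35 (adjusted p = 0.000498) and Gstk1 by 1.51 ± 0.16 (adjusted p = 6.95e-06). Of 14 thioredoxin and peroxiredoxin genes, 1 was higher and 1 lower in host liver, and 1 was higher, Sesn2, and 6 were lower in neo-liver (1 and 7 with the share subtracted), led by mitochondrial thioredoxin Txn2 (-1.29 ± 0.14, adjusted p = 9.25e-06). Of 8 genes of NADPH supply, which feeds both arms, 1 was higher and 3 lower in host liver, and 1 was higher and 6 lower in neo-liver (0 and 5 with the share subtracted, and the same counts at an unadjusted p under 0.05). Malic enzyme Me1 fell by 1.23 ± 0.34 in host liver (adjusted p = 0.0198) and by 1.06 ± 0.34 in neo-liver (adjusted p = 0.0196), and Pgd of the pentose phosphate pathway by 0.78 ± 0.17 and 0.96 ± 0.17.

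Of 9 haem and iron genes, 1 was higher in host liver and 3 were lower in neo-liver, among them Alas1, the first enzyme of haem synthesis (-0.95 ± 0.33, adjusted p = 0.0297). With the share subtracted 0 of the 9 were called by limma (2 at an unadjusted p under 0.05, both lower; Alas1 -0.59, adjusted p = 0.193). Of 14 other detoxification genes, 0 were called in host liver by limma (2 at an unadjusted p under 0.05) and 3 were lower in neo-liver (2 with the share subtracted), among them the quinone reductase Nqo2 (-1.31 ± 0.27, adjusted p = 0.00142). Of 4 superoxide dismutase and catalase genes, Sod3 was higher in both, by 0.73 ± 0.25 (adjusted p = 0.0481) and 2.17 ± 0.25 (adjusted p = 1.33e-05), and Cat, Sod1 and Sod2 were lower in neo-liver, also with the share subtracted.

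**Figure D4:**
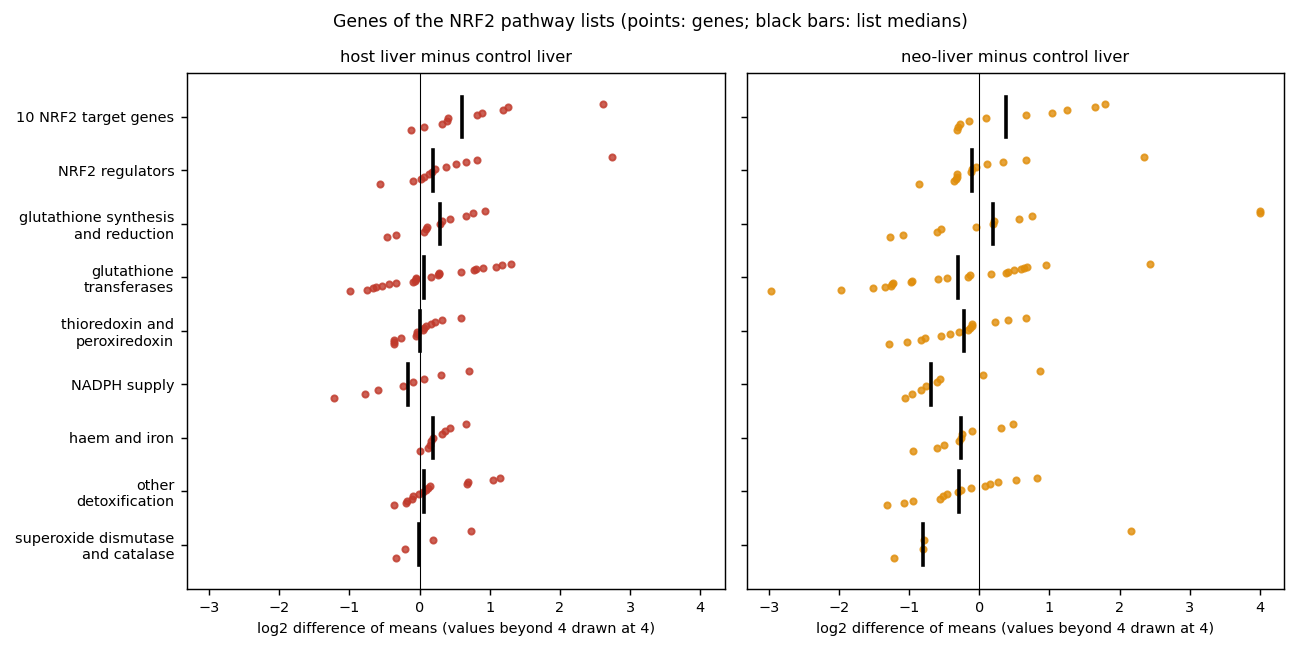
Log2 difference of each gene from control liver, by list, in host liver (left) and neo-liver (right); points are genes, black bars list medians, and values beyond 4 are drawn at 4. The median of the 10 NRF2 target genes lies at 0.61 in host liver and 0.38 in neo-liver, and the medians of the glutathione transferases at 0.06 and -0.31.

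Likeness of profiles was taken as the root mean square distance over 15 arrays (14 for Abcc4) after centring each gene on its mean. Over all genes, those nearest to Srxn1 were 2410006H16Rik (0.30), Nt5dc2 (0.34) and Mvp (0.35), and those nearest to Hmox1 were P2ry6 (0.43), Ly86 (0.45) and Ncf1 (0.46). Osgin1 lay nearest to Rnf225 (0.45), Abhd2 (0.49) and Sh2b2 (0.49). Spry1 (0.44) and Rnf122 (0.44) were among the 3 genes nearest to Cbr3. For Gclc they were Tnpo2 (0.17), Hs1bp3 (0.18) and Ralgps2 (0.20), for Gclm Axin1 (0.09), Acd (0.10) and Eif2ak1 (0.11), and for Txnrd1 Vars (0.11), Als2cl (0.14) and Psmd4 (0.15). Nqo1 was nearest to Retreg1 (0.23), Nicn1 (0.26) and Tiprl (0.26), Ces2g to Hsd3b7 (0.27), Palmd (0.27) and Cdo1 (0.28), and Abcc4 to Mipol1 (0.36), F3 (0.43) and 1810014B01Rik (0.44). A gene that varies little has small distances to many genes, so these distances rank genes for 1 member and not members with each other.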

How the data were processed

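The authors deposited scanner files with intensity values from Agilent Feature Extraction 10.10.1.1, per the submitters' processing notes. They also deposited log2 values, which differed from the log2 processed signals by an array constant close to the 75th percentile, to within 0.01 for 99.8% to 99.9% of the probes of each array. Flagged spots (103 to 183 an array) were left out here, 59305 spots were averaged to 55681 probes, and each array's 75th percentile was subtracted on the log2 scale. No spot was saturated. Flagged spots were not left out of the normexp and the deposited values. Probes well above background throughout at least 1 group were kept, and the probe with the highest mean stood for its gene.

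All 4 groups entered 1 limma fit (R 4.3.3, limma 3.58.1, statmod 1.5.0, data.table version 1.17.8), with two-sided Benjamini-Hochberg adjustment over 15619 genes. The fit was tried on simulated data with independent noise in each array, which leaves out the correlation within mice. Precision is limited by the number of arrays. The members and lists were chosen with earlier results of these data known. Named are all members in all comparisons, Nfe2l2, Keap1 and Bach1, up to 3 called genes of a list in each direction, and the 3 genes nearest each member, of which 1 is not reported here. Slc7a11, Ces2d-ps, Ces2f, Ces2h, Cd68 and Hbb-b1 were among the listed genes that were not tested. Of 17 tested relatives of the members, 4 were higher and 0 lower in host liver than in control liver (5 at an unadjusted p under 0.05, 0 of them lower), and 6 higher and 3 lower in neo-liver (3 and 3 with the kidney share subtracted).

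Residuals of host arrays with the same title number correlated in every pair (r across genes 0.179 to 0.577, always best with the same number). The pairing rests on this check, since no label states it, and on the numbers. Control livers only share numbers (r -0.125 to 0.0655). Residual correlations were 0.348 for mice and 0.0372 for slides. Slide 1 held neo-liver and control liver, slide 2 host liver 1 and 2, slide 3 host liver 3 and 4, and slide 4 host kidney. Only control liver and neo-liver shared a slide. Differences of host kidney and of host liver from the other groups cannot be told apart from those of their slides, since neither shared a slide with another group. Slide as a random block changed no call of a member, but it cannot remove a slide difference that falls together with the group. The labels do not say whether a neo-liver sample pools grafts. The kidney share was computed from 30 markers, each at least 8-fold higher in the host's kidney than in control liver, as the median of a sample's signal over that of host kidney, in percent, after removing the control liver signal. After its subtraction, values under the array's lowest signal well above background were set to that signal. Alternatives were quantile normalization, median centring, normexp (offset 50), the deposited values, other filters, the mean of probes, the 2 groups alone, mouse or slide as a block, the kidney share subtracted (and, added later, its quartiles over markers) and each array left out.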

Additional observations from a re-analysis of the deposited data

Results flagged for a closer look

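Host kidney 3 stood apart from the other 3 host kidneys for 3 members, with a gap to the nearest kidney, as a share of the group's range, past the 95% critical value of Dixon's test. Nqo1 read 1.94 there against 1.01 in the next kidney, Srxn1 4.21 against 3.84 and Cbr3 2.62 against 0.83. In all, 30 groups of 4 arrays were examined and 3 stood apart in this way, where chance gives about 1 in 20. All 3 are the same array, so they are not separate cases to set against that rate. The same mouse number was also highest for Srxn1 and Cbr3 in host liver and neo-liver.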

How the results depend on the processing

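Of 60 differences (10 members in 6 comparisons), 25 were called, and 11 of these were called under each of the alternatives run on them. Among those called, 1 changed sign, Ces2g in neo-liver against host liver, at 0.062 with the upper quartile of the kidney share subtracted. In all, 1125 values kept their side of the threshold, 59 others lost a call, with the same direction, and 33 gained one. Counts of members called moved by over 1.5 times as follows. Neo-liver against host liver went from 5 to 0 with quantile normalization and to 3 with normexp, in a fit of the 2 groups alone and with the kidney share subtracted, and to 1 with its upper quartile. With quantile normalization, neo-liver against host kidney went from 5 to 3 and host liver against host kidney from 7 to 4. With the replicate number as a block over all arrays, host liver and host kidney against control liver went from 2 and 3 to 5 and 5, but control livers share only a number with the hosts. The block over the host arrays changed no call other than those of Abcc4, Nqo1, Gclm and Cbr3 given beside their values. Leaving out each array in turn gave 1 to 4 called members in host liver against control liver (1 without control liver 1, 2 or 3 or host liver 4, and 4 without host liver 1), 2 to 3 in neo-liver against control liver, 5 to 6 in neo-liver against host liver, 3 to 5 in neo-liver against host kidney (3 without host kidney 1, 2 or 4 or neo-liver 3), 5 to 7 in host liver against host kidney and 3 to 4 in host kidney against control liver. The test between mice went from 4 to 7 without host kidney arrays, to 0 without neo-liver or host liver arrays, and to 0 without any 1 mouse, where fewer arrays remain. Quantile normalization, normexp and median centring shifted the median difference of all genes by up to 0.22, most in host liver against host kidney with median centring. Abcc4 was not tested with quantile normalization or the stricter filter. Shares of all genes called are given for the main fit only, so these counts do not tell a change of the members from one of all genes. The cause of these changes was not tested further.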

Other observations

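Some genes that are no members also differed between the 4 mice, and are given as values. Cyp1a1, the aryl hydrocarbon receptor target, read 5.12 in host liver 4, 4.92 in neo-liver 4 and 3.14 in host kidney 4, while the other host arrays read between -4.40 and -1.82 and control livers between -2.51 and -2.21. The mice spanned 7.20 over the host tissues (adjusted p = 0.00707, test added after the values were seen). Genes of the daily clock also differed: Dbp read 1.29, 6.61, 4.60 and 1.12 in host liver 1 to 4 and 1.34, 5.82, 3.37 and 1.36 in neo-liver, and Nr1d1 spanned 5.27 (adjusted p = 0.00707). Cry1 was -0.97, -4.11, -4.57 and -1.55 in host liver and -1.02, -4.22, -4.13 and -1.95 in neo-liver. The glucocorticoid-responsive Tsc22d3 was highest in mouse 4 and lowest in mouse 2 by the mean over tissues, spanning 1.80 (adjusted p = 0.00293). Ces2a, a relative of Ces2g, read 6.91, 9.08, 9.42 and 5.68 in host liver and 5.97, 7.53, 7.98 and 3.81 in neo-liver, and was called between mice (adjusted p = 0.0161), where Ces2g was not (0.214). These genes were chosen after their values were seen.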
